A study of Homo sapiens with 12 samples.

Results

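Of the 8 genes chosen by name as the pregnane X receptor (PXR), its partners and its classical target genes, 7 had a transcript cluster of their own on the arrays. In U87 cells given 3α-THP, P4 or F for 72 h, their array values were fitted over all 12 arrays. For each of these 7 the 95% interval of the fold change of the array values then lay within 1.5-fold in both directions. This did not hold for CYP3A4 with 3α-THP when 3α-THP replicate 1 was left out. For all but RXRA and ABCC2, however, the signal lay below the bound set here for dim clusters. There a fold change of the values can be smaller than that of the transcripts. A transcript cluster is a set of probes placed along 1 gene and summarised in 1 log2 value. The members were the clusters whose only annotated symbol is NR1I2, NR1I3, RXRA, CYP3A4, CYP3A5, CYP2B6, ABCB1 or ABCC2, each of the 7 with 1 cluster, out of 33297 clusters on the array, 19460 of them with exactly 1 gene. The annotation used here pairs no cluster with NR1I2, the gene of PXR itself, so its level was not analysed. U87 is a human glioblastoma cell line. Each of the 12 samples of total RNA went to 1 Affymetrix array of the type Human Gene 1.0 ST, with 3 samples each for allopregnanolone (3α-THP, 10 nM), progesterone (P4, 10 nM), the 5α-reductase inhibitor finasteride (F, 100 nM) and the vehicle (V). The titles number the arrays of each treatment as biological replicates 1 to 3, and the series' design text speaks of 3 independent experiments without saying which arrays belong to which. The labels give 0.1% DMSO for V in the sample characteristics and 10% in the protocol, and in every group the medium held charcoal-stripped serum without phenol red from the day before treatment. A single line at a single time limits what the groups stand for, and none of the treatments was a drug used as a standard activator of PXR.

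PXR is a nuclear receptor that binds drugs, bile acids and steroids of the pregnane type. It sits on DNA together with the retinoid X receptor, encoded by RXRA, at paired half-sites near genes of steroid and drug metabolism, and it is best known in liver and intestine, where it raises CYP3A4. The related constitutive androstane receptor, encoded by NR1I3, shares many of its targets. The comparisons address whether 3α-THP, for which PXR is one of the receptors considered in the study, was accompanied by a change in these genes, beside its precursor P4 and beside F.

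The upstream sequences of the CYP3A genes are shown because they hold a paired half-site of the kind that PXR is known to bind, and their transcripts are among those measured. Both are the 250 bases before the start of the gene in RefSeq (GRCh38.p14), on the minus strand, at chr7:99784185-99784434 for CYP3A4 and chr7:99679997-99680246 for CYP3A5. Capitals mark an everted repeat (ER6): a half-site TGAACT or TGACCT, a gap of 6 bases of any kind, then a half-site AGGTCA or AGTTCA. The search covered both strands, on which this pattern is the same.
CYP3A4: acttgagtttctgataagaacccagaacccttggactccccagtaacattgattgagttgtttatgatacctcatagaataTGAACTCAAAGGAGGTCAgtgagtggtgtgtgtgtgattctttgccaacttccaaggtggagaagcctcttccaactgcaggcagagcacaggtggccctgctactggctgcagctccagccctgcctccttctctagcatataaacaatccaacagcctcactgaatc
CYP3A5: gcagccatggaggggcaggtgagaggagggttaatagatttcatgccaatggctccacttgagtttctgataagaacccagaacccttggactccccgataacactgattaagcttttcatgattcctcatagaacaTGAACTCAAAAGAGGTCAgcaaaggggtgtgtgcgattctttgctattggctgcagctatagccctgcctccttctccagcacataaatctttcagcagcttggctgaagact
The match spans positions -169 to -152 in CYP3A4 and -113 to -96 in CYP3A5, counted back from the base before the start. Of 35116 such upstream windows in the table, 6 (0.0171%) hold this repeat. The 8 genes, NR1I2 included, have 11 such windows in all. Beyond the pair shown none of them holds this repeat, and none holds a direct repeat of AGGTCA or AGTTCA, on either strand, with a gap of 3 or 4 bases, which 0.0142% and 0.0256% of all windows hold. Single half-sites, which 19.7% of all windows hold and which the repeats contain, also stand upstream of NR1I2, CYP2B6 and ABCB1. A match describes these letters only, and elements farther from the start were not searched.

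ABCC2 gave a clear signal and RXRA a lower one, while CYP3A4, CYP3A5, CYP2B6, NR1I3 and ABCB1 lay among the dim clusters of the arrays. As a scale for dim signal served 360 clusters of single olfactory receptor genes, which a glioma line is not known to use, with 95% of their means over the 12 arrays below 5.27 and a median of 3.53. RXRA averaged 6.59 and ABCC2 7.62 on the log2 scale over the 12 arrays. The highest olfactory receptor cluster, at 6.83, lay above RXRA and below ABCC2. CYP3A5 averaged 4.52, NR1I3 4.08, ABCB1 3.74, CYP2B6 3.38 and CYP3A4 2.68, all below that bound. Each cluster has its own probes, so that these values do not rank the genes by transcript number. Near this floor a fold change of the values can be smaller than that of the transcripts, by an amount these arrays do not measure. In the check of the label, 6 of 8 glial and glioma markers lay at or above the bound, while S100B and SOX2 did not. VIM was at 12.5 and CD44 at 11.8, while OLIG2 at 5.58 and FABP7 at 5.35 passed narrowly. Of the 21214 clusters with a gene name 14996 lay at or above the bound, a share at which 6 of 8 does not set these markers apart. Of hepatocyte markers 3 of 9 did (SERPINA1 at 7.22, APOA1 and APOA2), with ALB at 3.39. Of enterocyte and of endothelial markers 1 of 5 each did, LGALS4 and CLDN5.

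**Figure D1:**
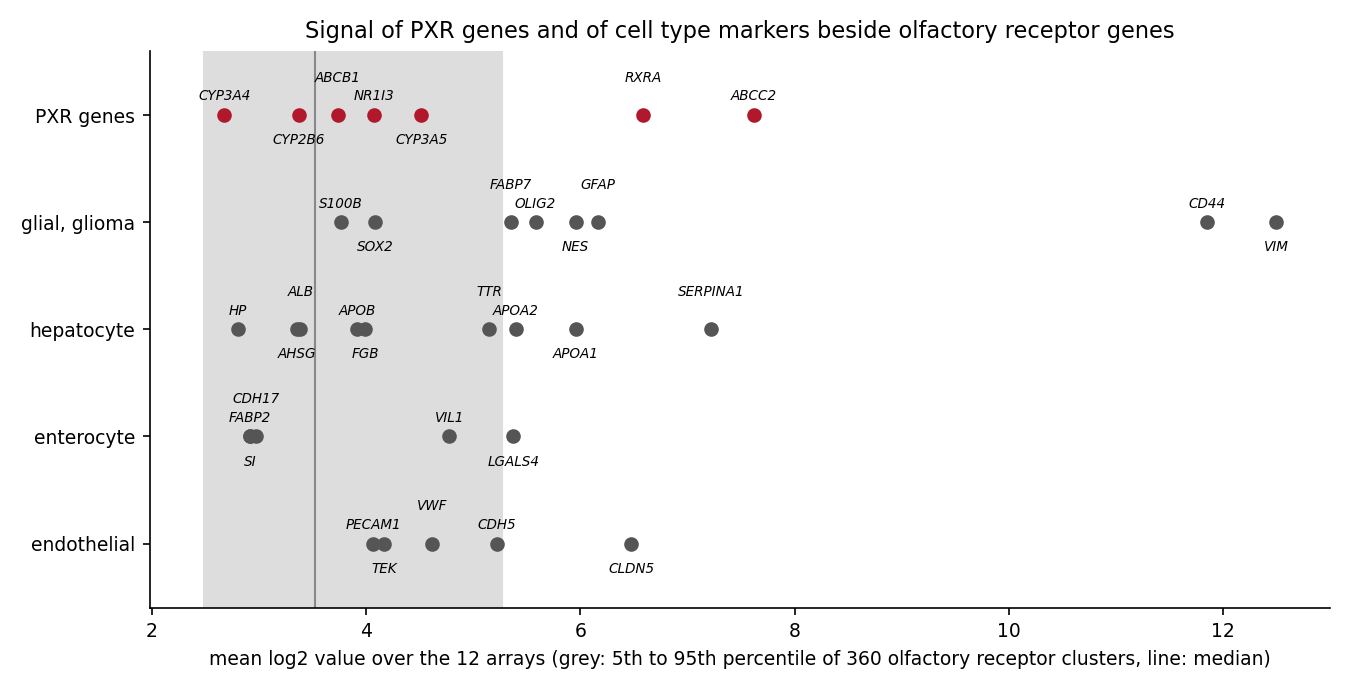
Mean log2 value over the 12 arrays (horizontal axis) of the 7 measured PXR genes and of markers of 4 cell types (rows), 1 point per gene, beside the range that holds the 5th to 95th percentile of 360 olfactory receptor clusters (grey, with the median as a line). RXRA and ABCC2 lie to the right of the grey range, and the other 5 PXR genes lie within it.

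With 3α-THP, 0 of the 7 members met both conditions that the methods set for a change, namely more than 1.5-fold and p under 0.05 before adjustment, which 0.679% of the 21214 tested clusters met. With P4 and with F the count was also 0 of 7, beside 0.0236% and 0.396% of all tested clusters, and for 3α-THP set against P4 it was 0 of 7 beside 0.25%. At such shares a count of 0 of 7 does not set the members apart from the other clusters. In limma 0 members had a Benjamini-Hochberg adjusted p under 0.05 with 3α-THP, P4 or F or between 3α-THP and P4, beside 0.00471%, 0.0%, 0.00471% and 0.0% of all tested clusters. Before adjustment 0 members had a p under 0.05 in these comparisons, also without variance moderation, beside 7.34%, 1.82%, 4.69% and 3.96% of all tested clusters. These fits leave out the replicate number. Given it as a block, limma gave such a p for CYP3A4 with 3α-THP and for ABCC2 between 3α-THP and P4. The shares of all tested clusters were then 13.4% and 9.0%. With array weights CYP3A4 with 3α-THP (limma, unadjusted p = 0.0244) and CYP3A5 with P4 (limma, unadjusted p = 0.0133) had one, beside 2803 and 1252 of the 21214 clusters. The arrays of both groups did not overlap in 0 of 7 members with 3α-THP, 0 with P4, 1 with F and 1 between 3α-THP and P4, beside 11.3%, 5.44%, 9.11% and 8.22%. The median log2 fold change of the 7 genes was -0.04 with 3α-THP, -0.04 with P4 and 0.04 with F, beside -0.03, -0.01 and -0.02 over all tested clusters. It was above 0 in 3 of the 7 genes with 3α-THP, 3 with P4, 5 with F and 3 between 3α-THP and P4, beside 41.1%, 43.9%, 41.8% and 44.8% of all tested clusters. Of the 28 fold changes, those of the 7 genes in the 4 comparisons, all 28 had a 95% interval within 1.5-fold in both directions, the widest bounds being a fold of 0.694 for CYP3A4 with 3α-THP against V and of 1.42 for ABCC2 with 3α-THP against P4. These intervals concern the values on the arrays. In total RNA of a culture, fewer cells with a transcript and less of it in each cell cannot be told apart. A test of any difference among the 4 treatments gave p values of 0.278 to 0.743 for the 7 genes (limma, moderated F test, adjusted p = 1 for each), and 3.81% of all tested clusters had one under 0.05. The 3 comparisons with V share the V arrays.

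**Figure D2:**
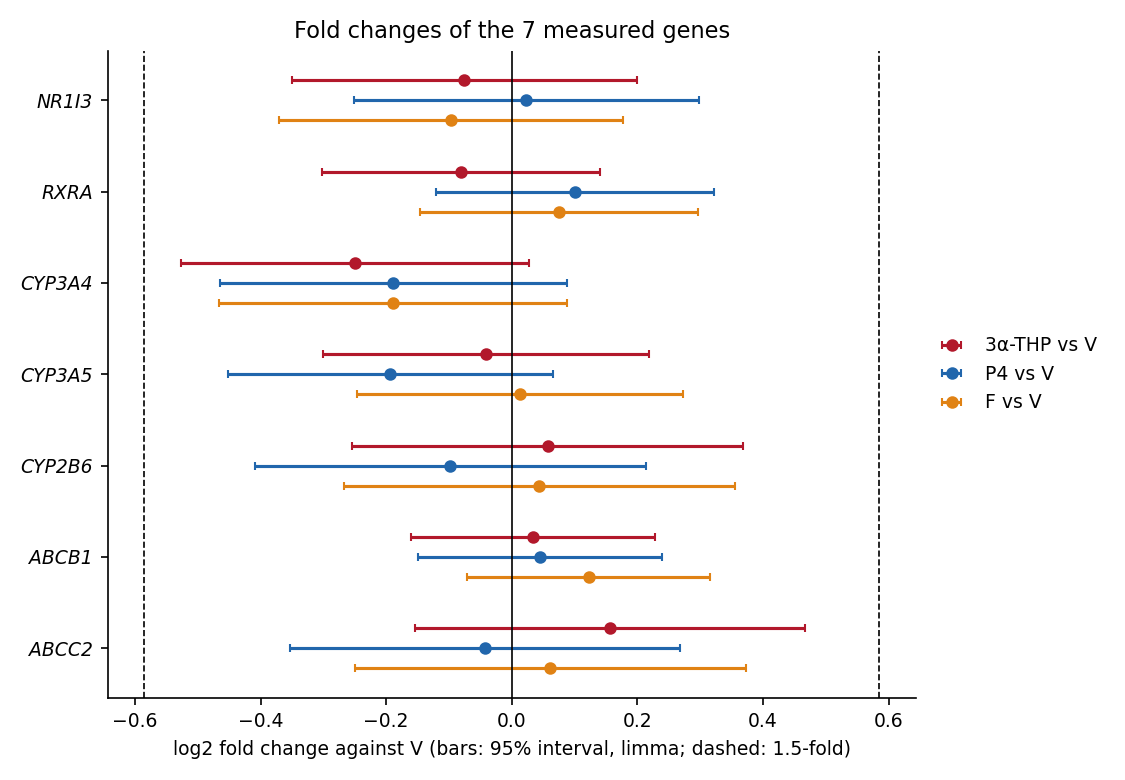
Log2 fold change against V (horizontal axis) of the 7 measured genes (rows) with 3α-THP, P4 and F, with 95% intervals from limma (3 arrays per treatment) and dashed lines at 1.5-fold. All 21 intervals include 0 and stay between the dashed lines.

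NR1I3, the constitutive androstane receptor, had log2 values of 3.74, 4.11 and 4.27 with 3α-THP, of 4.02, 4.22 and 4.18 with P4, of 4.10, 4.04 and 3.91 with F and of 4.26, 4.001 and 4.08 with V, for numbers 1, 2 and 3 in this order, as in all such series here. The arrays of each steroid overlapped those of V. The array of 3α-THP number 1 was the lowest of the 12, and that of 3α-THP number 3 the highest. The log2 fold change was -0.08 (SE 0.127) with 3α-THP, 0.02 with P4 and -0.10 with F.

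RXRA, the heterodimer partner of both receptors, had log2 values of 6.56, 6.32 and 6.57 with 3α-THP, of 6.81, 6.63 and 6.55 with P4, of 6.77, 6.61 and 6.54 with F and of 6.63, 6.60 and 6.47 with V. All treatments overlapped V, and the lowest array was 3α-THP number 2. Set against V of the same number, each P4 and each F array was higher, by 0.18, 0.03 and 0.09 with P4 and by 0.14, 0.01 and 0.07 with F. For this and the like patterns below, the share of all tested clusters that have one was not counted. The log2 fold change was -0.08 (SE 0.102) with 3α-THP, 0.10 with P4 and 0.08 with F. Between 3α-THP and P4 it was -0.18 (95% interval -0.40 to 0.04, limma, adjusted p = 0.999).

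CYP3A4, the main drug- and steroid-oxidising cytochrome of liver and the textbook target of PXR, had the smallest p of the 7 genes with 3α-THP. Its log2 values were 2.80, 2.68 and 2.28 with 3α-THP, 2.53, 2.86 and 2.55 with P4, 2.65, 2.63 and 2.66 with F and 2.92, 2.83 and 2.75 with V. The 3 F arrays, with an SD of 0.0171, lay below all 3 V arrays. The 3α-THP and P4 arrays overlapped those of V, and the lowest of the 12 arrays was 3α-THP number 3. Against V of the same number the differences were -0.13, -0.15 and -0.47 with 3α-THP and -0.27, -0.21 and -0.09 with F. With P4 they were -0.39, 0.03 and -0.20. The log2 fold change was -0.25 (SE 0.128) with 3α-THP, -0.19 with P4 and -0.19 with F (limma, unadjusted p = 0.0733, 0.165 and 0.162, adjusted p = 0.73, 1 and 0.999). When limma was given the replicate number as a block, the unadjusted p with 3α-THP was 0.0415 and the adjusted p 0.351, at the same fold change. Without 3α-THP replicate 1 the log2 fold change was -0.35 (limma, unadjusted p = 0.0194), and without 3α-THP replicate 3, the lowest array, it was -0.10 (unadjusted p = 0.399). With P4 it was -0.29 without P4 replicate 2 (limma, unadjusted p = 0.0458) and -0.13 without P4 replicate 1 (unadjusted p = 0.388). These values lie at the lower end of the dim signal, where 9.44% of the olfactory receptor clusters had a lower mean. The 2 clusters of CYP3A4 and CYP3A5 belong to genes of very similar sequence, and to what degree their probes take up each other's transcripts is not known from the table.

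CYP3A5, a close relative of CYP3A4 that is also made outside the liver, had log2 values of 4.596, 4.45 and 4.55 with 3α-THP, of 4.28, 4.24 and 4.62 with P4, of 4.62, 4.58 and 4.56 with F and of 4.58, 4.36 and 4.78 with V. All treatments overlapped V. With P4 each array lay below the V array of the same number, by 0.30, 0.12 and 0.16, and the log2 fold change was -0.19 (SE 0.12, limma, unadjusted p = 0.131, adjusted p = 1). It was -0.04 with 3α-THP and 0.01 with F. With P4 the unadjusted p was 0.0278 without V replicate 2 and 0.0179 without P4 replicate 3, at log2 fold changes of -0.30 and -0.32, both under a fold of 1.5 (limma). Without V replicate 3 the log2 fold change was -0.089 (limma, unadjusted p = 0.484). Of the treatment means, that with 3α-THP was the lowest for CYP3A4 and that with P4 for CYP3A5. They were 2.58 and 4.38, against 2.83 and 4.57 with V. For CYP3A4 the means with P4 and F were near that with 3α-THP, at 2.65 and 2.64. Its log2 fold change between 3α-THP and P4 was -0.06 (limma, unadjusted p = 0.641) and ran from -0.17 to 0.092 with each array left out.

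CYP2B6, an enzyme of drug metabolism that answers to both receptors in liver, had log2 values of 3.46, 3.53 and 3.31 with 3α-THP, of 3.35, 3.46 and 3.02 with P4, of 3.57, 3.35 and 3.34 with F and of 3.68, 3.15 and 3.29 with V. The V arrays covered the widest range of the 4 groups and overlapped every treatment. Each 3α-THP array lay above the P4 array of the same number, by 0.11, 0.07 and 0.28. The log2 fold change was 0.06 (SE 0.144) with 3α-THP, -0.10 with P4 and 0.04 with F.

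**Figure D3:**
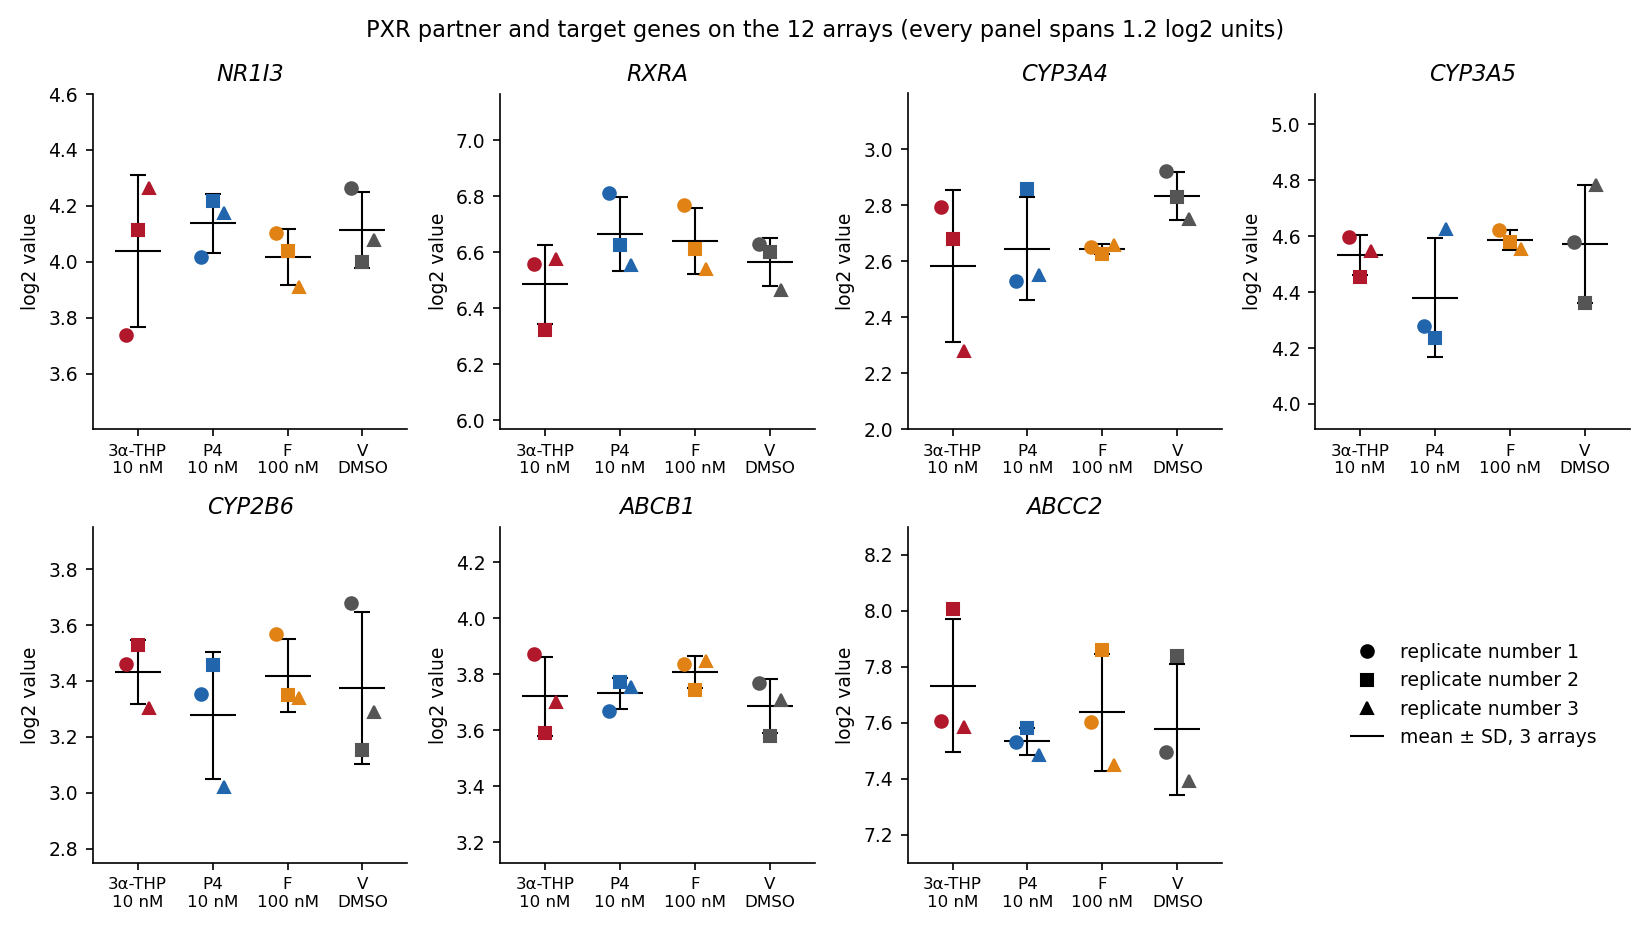
Log2 value of the 7 measured genes on each array (vertical axis, 1.2 log2 units in each panel) for 3α-THP, P4, F and V, with symbols for the replicate number and bars for mean ± SD (n = 3). The treatments overlap V in every panel except for F in CYP3A4, and the 4 arrays of number 2 of ABCC2 lie above the others of their treatment.

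ABCB1, which encodes the efflux pump P-glycoprotein of the blood-brain barrier and of drug-resistant tumors, had log2 values of 3.87, 3.59 and 3.70 with 3α-THP, of 3.67, 3.77 and 3.75 with P4, of 3.84, 3.74 and 3.85 with F and of 3.77, 3.58 and 3.71 with V. Its arrays spread least of the 7 genes, with a pooled SD of 0.0949 beside a median of 0.136 over all tested clusters. Each F array was higher than its V counterpart of that number, by 0.07, 0.16 and 0.14, although the arrays of F and V overlapped. The log2 fold change with F was 0.12 (SE 0.0896, limma, unadjusted p = 0.196, adjusted p = 0.999), beside 0.03 with 3α-THP and 0.05 with P4.

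ABCC2, an export pump for conjugated drugs and steroids, had the brightest cluster of the 7 genes and varied with the replicate number. Its log2 values were 7.61, 8.01 and 7.58 with 3α-THP, 7.53, 7.58 and 7.49 with P4, 7.60, 7.86 and 7.45 with F and 7.49, 7.84 and 7.39 with V. Number 2 was the highest array in each treatment, with a mean of 7.82 over the 4 treatments against 7.56 for number 1 and 7.48 for number 3 (limma, F test for the number beside the treatment, adjusted p = 0.0137, a test added after the values were seen). The number passed this test in 16.1% of all tested clusters and in none of the other 6 members, of which CYP2B6 had the smallest p (unadjusted p = 0.0446, adjusted p = 0.156). The treatments of ABCC2 overlapped V, although each 3α-THP and each F array exceeded the V array that shares its number, by 0.11, 0.17 and 0.19 and by 0.11, 0.02 and 0.06. The log2 fold change was 0.16 (SE 0.144) with 3α-THP, -0.04 with P4 and 0.06 with F. With 3α-THP it was 0.02 without 3α-THP replicate 2, the highest array, and 0.29 without V replicate 2.

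At the matched dose of 10 nM, the response of the 7 genes to 3α-THP, the reduced metabolite of P4, did not differ from that to P4 itself by the threshold. The intervals, which concern the array values, stayed within 1.5-fold. ABCC2 had the largest positive difference, at a log2 fold change of 0.20 (95% interval -0.11 to 0.51, limma, adjusted p = 0.999). Its 3α-THP arrays lay above its P4 arrays, at a lowest value of 7.584 with 3α-THP and a highest of 7.583 with P4. With a block for the replicate number, its unadjusted p in limma was 0.0351 and its adjusted p 0.514. Without 3α-THP replicate 2 its difference was 0.063 (limma, unadjusted p = 0.663), below those of CYP3A5 (0.19) and CYP2B6 (0.11) without that array. For the other 6 genes the difference ran between -0.18 in RXRA and 0.15 in CYP2B6, with overlapping arrays. F was given at 100 nM, so that its values stand beside those of 3α-THP and P4 without a test between them.

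Among other genes of the pathway, listed by role from general knowledge, 0 of 45 measured genes passed the threshold with 3α-THP, P4 or F or between 3α-THP and P4, beside 0.679%, 0.0236%, 0.396% and 0.25% of all tested clusters, shares at which a count of 0 does not set the list apart. The list holds 59 genes, of which 6 are covered only by clusters shared with other genes, such as those of the UGT1A family, and 8 have no cluster named here. In limma 0 of the 45 passed the adjusted p in any comparison. Before adjustment, p was under 0.05 for 2 of them with 3α-THP, 0 with P4, 1 with F and 3 between 3α-THP and P4, which is 4.44%, 0.0%, 2.22% and 6.67%, beside 7.34%, 1.82%, 4.69% and 3.96% of all tested clusters, and without variance moderation for 1, 0, 0 and 1. Groups of arrays stood clear of each other for 5 of these 45 with 3α-THP (11.1%), 0 with P4, 2 with F (4.44%) and 3 between 3α-THP and P4 (6.67%), beside 11.3%, 5.44%, 9.11% and 8.22% of all tested clusters. The 95% interval lay within 1.5-fold in both directions for 41 of the 45 genes with 3α-THP, 44 with P4, 43 with F and 42 between 3α-THP and P4. The median log2 fold change of the 45 genes was -0.01 with 3α-THP, -0.01 with P4 and -0.01 with F.

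The coregulator gene NRIP1, whose product RIP140 dampens the activity of nuclear receptors, had the smallest p of the list with 3α-THP and with F. Its log2 values were 7.70, 8.11 and 7.90 with 3α-THP, 7.45, 7.65 and 7.67 with P4, 7.81, 7.84 and 7.85 with F and 7.22, 7.82 and 7.34 with V. The arrays of V number 1 and 3 lay below every treated array, while that of V number 2 lay among them. The log2 fold change was 0.44 (SE 0.145, limma, unadjusted p = 0.00933, adjusted p = 0.541) with 3α-THP and 0.37 (unadjusted p = 0.0238, adjusted p = 0.936) with F, beside 0.13 with P4. Without V replicate 2 it was 0.62 with 3α-THP, past the threshold (limma, unadjusted p = 0.00022, adjusted p = 0.0881), and without V replicate 1 it was 0.32 (unadjusted p = 0.0524). With F the values were 0.55 without V replicate 2 and 0.25 without V replicate 1. Between 3α-THP and P4 it was 0.32 (unadjusted p = 0.0488), with no overlap of arrays, and 0.21 without 3α-THP replicate 2 (unadjusted p = 0.19). CREBBP, a histone acetyltransferase, had -0.06 with 3α-THP.

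CES2, a carboxylesterase that hydrolyses drugs and a PXR target in liver, was the other gene with an unadjusted p under 0.05 with 3α-THP, at a log2 fold change of -0.24 (SE 0.108, limma, unadjusted p = 0.0419, adjusted p = 0.665). Its log2 values were 8.19, 7.75 and 8.21 with 3α-THP, 8.29, 8.24 and 8.20 with P4, 8.21, 8.16 and 8.21 with F and 8.31, 8.28 and 8.30 with V. All 3α-THP and all F arrays lay below all V arrays, and 3α-THP number 2 stood apart as the lowest. Without that array the log2 fold change with 3α-THP was -0.09. CYP3A43, a further gene of the CYP3A family, had 0.17 with 3α-THP. CYP2C8, a drug-oxidising cytochrome, was chosen after its values were seen and differed between 3α-THP and P4 by 0.31 (95% interval 0.11 to 0.51, limma, unadjusted p = 0.00582, adjusted p = 0.999), with arrays that did not overlap and a mean of 3.27 in the dim range.

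FASN, the fatty acid synthase, had log2 values of 7.90, 7.80 and 7.72 with 3α-THP, of 8.04, 8.24 and 7.81 with P4, of 7.94, 8.38 and 7.86 with F and of 8.01, 8.50 and 7.96 with V. The 3α-THP arrays lay below all V arrays, and the log2 fold change was -0.35 (SE 0.166, limma, unadjusted p = 0.0538, adjusted p = 0.694). Without V replicate 2, the highest array, it was -0.18 (limma, unadjusted p = 0.271), and without V replicate 3 it was -0.45 (unadjusted p = 0.0313). With a block for the replicate number its unadjusted p was 0.00554 and its adjusted p 0.176. SCD, the desaturase of fatty acid synthesis, had -0.22 with 3α-THP and -0.24 between 3α-THP and P4 (limma, unadjusted p = 0.0433), with 3α-THP number 2 the lowest of its 12 arrays at 12.002. Without that array its difference between 3α-THP and P4 was -0.10. Among receptors, those with the smallest p with 3α-THP were NR0B2 and RXRB. NR0B2, a corepressor without a DNA-binding domain, had -0.23, with no overlap of arrays, and RXRB, a further retinoid X receptor, had -0.21. VDR, the vitamin D receptor, had a larger change of -0.26 with overlapping arrays (limma, unadjusted p = 0.0694, and 0.00671 with a block for the replicate number, adjusted p = 0.722 and 0.192). Among conjugating enzymes the glutathione transferases GSTA1 and GSTA4 had -0.26 and 0.09, among transporters SLCO1A2 and ABCC3 had -0.13 and -0.10, and among the proteins that hold the receptors in the cytosol DNAJC7 and HSP90AA1 had 0.09 and 0.07, all as log2 fold changes with 3α-THP that did not pass the test.

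**Figure D4:**
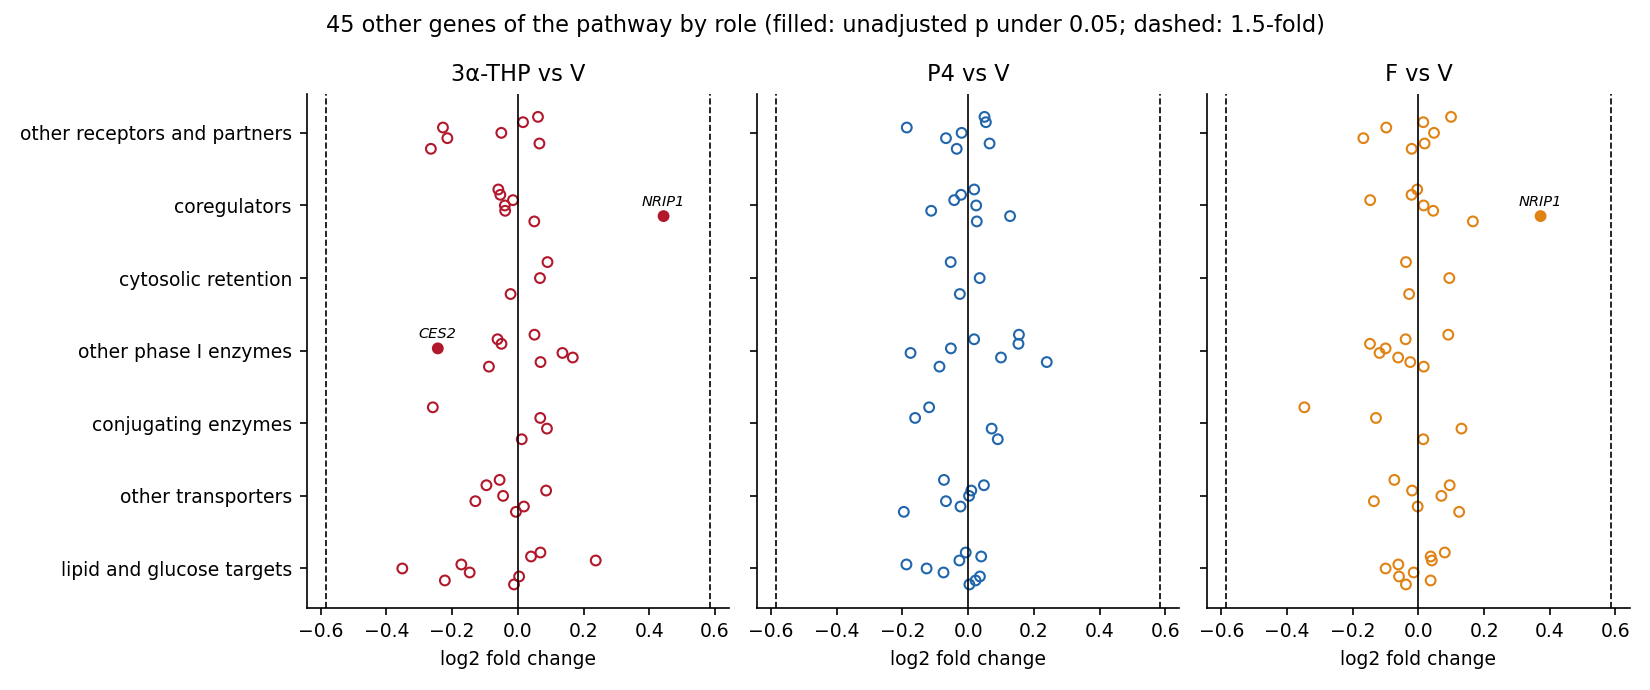
Log2 fold change against V (horizontal axis) of 45 other genes of the pathway in 7 role groups (rows), with 3α-THP, P4 and F in a panel each, 1 point per gene, filled where the unadjusted p was under 0.05 and with dashed lines at 1.5-fold. All points lie between the dashed lines, and NRIP1 and CES2 are the filled ones.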

How the data were processed

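The authors hybridised total RNA of U87 cells to Human Gene 1.0 ST arrays and deposited 1 log2 value per transcript cluster and array, made with Affymetrix Expression Console 1.4 per the labels and normalized between arrays. How the deposited table was normalized is not given in it. The values run from 1.25 to 14.1, and the medians of named clusters from 6.35 to 6.40. The number of arrays, 3 per treatment, limits the precision.

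Clusters were named from the platform annotation: 19460 carry 1 gene, 1754 several and 12083 none. In R 4.3.3, the limma package (3.58.1) fitted the treatment means of the 12 arrays to the 21214 named clusters (prior degrees of freedom 4.73), and p values were adjusted over all of them by Benjamini-Hochberg. The fit was tested on simulated data with independent arrays and no effect of the replicate number, so that this test does not cover the pairing of the arrays. A gene with several clusters entered with its brightest. All members are named in the text, and of the wider list the genes past the threshold and, in each role group, those with the 2 smallest p with 3α-THP. VDR and CYP2C8 were added after the values were seen. The rule for genes with a similar pattern applied to NR1I2 and to members past the threshold, so it names none. The members and lists were chosen with earlier results of these data known.

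The replicate numbers come from the sample titles. Deviations from the treatment means correlated at 0.132 to 0.631 (median 0.4) in 18 pairs of arrays with the same number. In 36 other pairs they correlated at -0.604 to 0.226 (median -0.245), so that the ranges overlap in part. The deviations of each treatment cancel out, so that higher correlations in the first set lower those in the other. On these values the number was taken to pair the arrays. The fit without it is reported, as in the unpaired analysis of the methods, so that its intervals and p values include the spread between the numbers. With the number as a block the SE of each member was smaller, at 0.0842 against 0.144 for ABCC2 and 0.125 against 0.127 for NR1I3. The share of tested clusters with an unadjusted limma p under 0.05 with 3α-THP was 13.4% with the block and 7.34% without it. Motifs were searched as exact letters in upstream sequences from RefSeq.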

Additional observations from a re-analysis of the deposited data

Results flagged for a closer look

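CYP2C8, a gene of the wider list, had differences of one sign with 3α-THP and of the other sign with P4 and with F when each array was set against V of the same number, while none of its fold changes against V passed the test (limma, unadjusted p = 0.173 with 3α-THP, 0.0855 with P4 and 0.231 with F). With 3α-THP the differences were 0.07, 0.001 and 0.34 on the log2 scale, with P4 -0.35, -0.14 and -0.04, and with F -0.19, -0.07 and -0.10. The log2 fold changes against V differed by 0.311 between 3α-THP and P4 (limma, unadjusted p = 0.00582, adjusted p = 0.999) and by 0.254 between 3α-THP and F, where the doses differ and the difference was not tested. All use the same V arrays, and 37.2% of the olfactory receptor clusters had a lower mean than CYP2C8. The gene was picked from the members and the wider list by this pattern, so that p values from the same arrays are no separate test. How many of all tested clusters have such a pattern was not counted.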

How the results depend on the processing

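With 23 alternatives (2 groups alone, no variance moderation, quantile normalization, clusters with 1 gene, all clusters, dim clusters left out, array weights, a trended and robust prior, the next brightest cluster, the replicate number as a block, each array left out, and, added after seeing the data, the arrays of number 2 left out), the count of changed members was 0 in each of the 4 comparisons, and so was the count of members with a difference among the treatments where that test could be made. With dim clusters left out, only RXRA and ABCC2 remained of the 7. Settings that alter only the spread, the clusters tested or an array of another treatment leave a fold change as it is. As none was over 1.5-fold, the counts of changed genes under them were fixed at 0 in advance. The next brightest cluster is the same cluster for each of the 7 members. Under a block for the replicate number the counts were also 0 for members and 0 for the wider list, fixed in this way. Before adjustment, p was then under 0.05 for 1 of the 7 members with 3α-THP, 0 with P4, 0 with F and 1 between 3α-THP and P4. Of the 45 genes of the wider list 6 had such a p with 3α-THP, 1 with P4, 2 with F and 6 between 3α-THP and P4 (13.3%, 2.22%, 4.44% and 13.3%). The shares of all tested clusters under the block were 13.4%, 3.8%, 8.54% and 9.0%. The count of the wider list with 3α-THP against V ran from 0 to 1 with each array left out, the 1 being NRIP1 without V replicate 2, and in the other settings and comparisons it was 0.

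Of 624 fold changes of the members under these settings, 372 are the same by construction, since the setting alters only the spread or the clusters tested, or leaves out an array of another treatment. Of the 252 that could move, 36 had the other sign, none past the threshold. With array weights the log2 fold change with 3α-THP was 0.00019 for NR1I3, 0.011 for RXRA and 0.0034 for SLCO1A2, that with F -0.10 for CYP3A5 and that with P4 0.064 for ABCC2. Without the arrays of number 2 it was 0.019 for RXRA and -0.10 for CYP2B6 with 3α-THP, -0.073 for NR1I3, -0.028 for ABCB1 and 0.065 for ABCC2 with P4, -0.090 for CYP3A5 and -0.031 for CYP2B6 with F, and 0.075 for ABCB1 between 3α-THP and P4. With each array left out, the values against V with 3α-THP ran from -0.19 to 0.075 in NR1I3, -0.13 to 0.0012 in RXRA, -0.15 to 0.063 in CYP3A5, -0.053 to 0.21 in CYP2B6, -0.041 to 0.0998 in ABCB1, -0.19 to 0.050 in ABCC3, -0.021 to 0.18 in DNAJC7, -0.089 to 0.26 in GSTA4, -0.11 to 0.23 in HSP90AA1 and -0.22 to 0.051 in SLCO1A2. With P4 they ran from -0.033 to 0.098 in NR1I3, -0.21 to 0.055 in CYP2B6, -0.0077 to 0.087 in ABCB1 and -0.13 to 0.090 in ABCC2. With F they ran from -0.094 to 0.12 in CYP3A5, -0.066 to 0.20 in CYP2B6 and -0.050 to 0.19 in ABCC2. Between 3α-THP and P4 they ran from -0.21 to 0.052 in NR1I3, -0.17 to 0.092 in CYP3A4 and -0.087 to 0.055 in ABCB1. The causes were not tested.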
